A study of Mus musculus with 8 samples.

Results

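The histone deacetylase genes of the SN4741 line were followed through single-cell RNA-seq of 8 libraries. The members were matched by gene symbol: Hdac1, Hdac2, Hdac3, Hdac4, Hdac5, Hdac6, Hdac7, Hdac8, Hdac9 and Hdac11, which are 10 of the 31053 genes listed. Hdac10 is not part of the set, and the set was chosen with earlier results of these data known. All 10 carried unique molecular identifiers (UMIs, each the count of 1 captured transcript molecule) in every library, and all 10 passed the low-count limit (a mean of at least 1 UMI per library) in every comparison. SN4741 is a mouse neural precursor line, labelled WT, of which 4 libraries were grown at 37 °C in 10% fetal bovine serum (the undifferentiated, permissive state). The other 4 were moved to 39 °C in 0.5% serum, starting 24 hours after passage, for 48 hours (the differentiated, non-permissive state). Temperature and serum changed together, so their parts in any difference cannot be told apart. Per the study, all cells descend from 1 clone taken from embryonic substantia nigra, carry the temperature-sensitive SV40 T antigen tsA58 behind a Th promoter, and have an unstable, polyploid karyotype, so the gene copy number of any member can differ from that of a normal cell.

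Histone deacetylases remove acetyl groups from lysines, on histone tails and on other proteins, and deacetylated chromatin is in general less open to transcription. Class I enzymes (Hdac1, Hdac2, Hdac3 and Hdac8) are mostly nuclear, and the first 3 of them work inside corepressor complexes. Class IIa enzymes (Hdac4, Hdac5, Hdac7 and Hdac9) have weak catalytic activity of their own, bind MEF2 transcription factors as repressors, and leave the nucleus when phosphorylated and bound by 14-3-3 proteins. Hdac6 (class IIb) is a cytoplasmic enzyme that deacetylates tubulin, and Hdac11 (class IV) is the smallest member and is known for removing fatty acyl groups. In neural precursors Hdac1 and Hdac2 are known for their part in the exit from division, while class IIa members are abundant in neurons and muscle.

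After the study's cell limits, 18351 of 19125 cells were kept, 985 to 3494 per library, with 17166686 to 29633818 UMIs per library. Median UMIs per kept cell ran from 6676 (39 °C replicate 4) to 16665 (39 °C replicate 1, also the library with the fewest cells). Pairs of libraries had at most 5 cell barcodes in common, and no library was a copy of another (chi-square per degree of freedom from 2.85 to 21.4 between libraries of 1 temperature). The label neural precursor was only in part met by its markers. Vim was abundant at both temperatures, Nes stood at 462 CPM (counts per 1000000 UMIs) at 37 °C and 110.1 at 39 °C, and Sox2 at 54.8 and 77.1 CPM, but Sox1, Pax6, Msi1 and Fabp7 each had 10 or fewer UMIs per temperature. Summed neuron markers ran from 165 to 193 CPM per library at 37 °C and from 79.3 to 97.7 at 39 °C, with Rbfox3, Snap25 and Syt1 at or near 0. Summed mesenchymal markers (collagens for the most part) ran from 1751 to 1818 CPM at 37 °C and from 823 to 856 at 39 °C, and 4 of 7 oligodendrocyte markers (Olig1, Olig2, Sox10 and Mog) had no UMI. Summed neural precursor markers overlapped between the temperatures, from 5638 to 6013 CPM at 37 °C and from 5191 to 5803 at 39 °C. The fall of the neuron and mesenchymal sums over all kept cells ran alongside the temperature differences below in those cells. The part of these lists in them was not tested. In cells with an Mki67 UMI, taken separately below, 1 tested neuron marker was higher at 39 °C, 1 was lower and 2 did not pass (median log2 fold change 0.20). Of the mesenchymal markers tested there, 3 were lower and 1 did not pass.

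Promoter windows of 3 members that rose at 39 °C (Hdac4, Hdac5 and Hdac11) and of 1 that fell (Hdac6) are shown here, so that their letters can be set beside the levels in what follows. Of the 10 members, 8 had an entry in the RefSeq promoter table of GRCm38.p6 (250 bases before the transcript start to 50 after it). Hdac1 and Hdac3 had none. Letters run 5′ to 3′ in the direction of transcription, on the strand that each line names. Capitals mark GC boxes (letters GGGCGG), the CCAAT box, the cell-cycle CHR element (letters TTTGAA), an E2F core (letters TTTGGCG) and, in Hdac5, a MEF2 site (the last run of capitals in its line). These were searched on both strands together with the E box (letters CACGTG) and the CRE (letters TGACGTCA), and none of these motifs contains another. For Hdac11, only the part that no annotated exon covers is printed.
Hdac4, chr1:92180342-92180591, minus strand: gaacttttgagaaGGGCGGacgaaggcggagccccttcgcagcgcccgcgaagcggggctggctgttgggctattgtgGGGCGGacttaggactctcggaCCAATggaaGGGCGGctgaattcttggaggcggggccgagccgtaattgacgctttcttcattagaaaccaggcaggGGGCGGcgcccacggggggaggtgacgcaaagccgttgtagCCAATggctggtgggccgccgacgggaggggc
Hdac5, chr11:102230173-102230422, minus strand: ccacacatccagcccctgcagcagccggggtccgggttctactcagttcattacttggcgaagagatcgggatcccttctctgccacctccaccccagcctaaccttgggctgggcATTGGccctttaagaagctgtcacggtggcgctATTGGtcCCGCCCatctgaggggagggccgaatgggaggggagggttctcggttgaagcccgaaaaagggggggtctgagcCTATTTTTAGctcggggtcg
Hdac6, chrX:7947890-7948139, minus strand: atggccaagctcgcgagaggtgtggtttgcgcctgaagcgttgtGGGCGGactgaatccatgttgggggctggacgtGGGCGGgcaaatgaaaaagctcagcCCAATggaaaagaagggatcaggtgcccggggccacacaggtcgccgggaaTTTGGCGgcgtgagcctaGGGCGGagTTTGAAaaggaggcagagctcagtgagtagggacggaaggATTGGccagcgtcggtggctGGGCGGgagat
Hdac11, chr6:91156565-91156664, plus strand: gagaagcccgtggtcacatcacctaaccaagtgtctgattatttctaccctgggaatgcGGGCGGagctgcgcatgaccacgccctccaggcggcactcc
The Hdac4 window held 4 GC boxes and 2 CCAAT boxes. The Hdac5 window held 1 GC box, 2 CCAAT boxes and, 20 bases before the start, the MEF2 site. The exact letters of this site, on either strand, are in 0.1035% of the 32851 windows in the table. Other spellings of a MEF2 site were not searched, so this is not the share of windows with any such site. The Hdac6 window held 4 GC boxes, 2 CCAAT boxes, a CHR element 71 bases and an E2F core 97 bases before the start. Over all windows, a GC box was present in 32.74%, a CCAAT box in 33.85%, a CHR element in 15.99% and an E2F core in 1.257%. The Hdac8 window, which is not printed because annotated exons cover most of it, held 2 CHR elements and 2 CCAAT boxes, and 1 window of Hdac9 held a CHR element. Hdac2, which passed narrowly as lower at 39 °C, also has a window that is not printed. It held 1 GC box and no CHR element or E2F core. The Hdac11 window held 1 GC box and 1 CCAAT box, and the CCAAT box lies outside the printed stretch. No E box (6.021% of all windows) or CRE (1.546%) was found in the windows of the 4 printed genes. These are matches of letters, not measured sites.

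Each library entered as the sum of its kept cells, since cells of 1 library are not replicates, and levels are given as CPM. The 3′ kit yields 1 UMI per captured molecule, so CPM were not divided by transcript length. Hdac2 was the most abundant member at both temperatures, at 92.0 ± 2.57 CPM (SD, n = 4) at 37 °C and 84.4 ± 4.11 at 39 °C. At 37 °C it was followed by Hdac7 (54.0 ± 3.10) and Hdac1 (53.9 ± 2.36), which differed by less than their spread, then by Hdac4 (40.0 ± 1.68), Hdac3 (36.5 ± 2.94), Hdac5 (35.1 ± 1.00) and Hdac6 (31.1 ± 1.11). Hdac3 and Hdac5 also differed by less than their spread. At 39 °C the second place went to Hdac4 (61.7 ± 2.11), followed by Hdac7 (57.3 ± 3.73), Hdac5 (46.1 ± 2.59), Hdac1 (35.3 ± 2.18), Hdac3 (25.6 ± 1.77) and Hdac6 (20.7 ± 0.479). Hdac8 stood well below these, at 10.7 ± 0.637 and 14.1 ± 0.733 CPM. Hdac9 (2.08 ± 0.110 and 2.30 ± 0.434) and Hdac11 (2.16 ± 0.152 and 5.12 ± 0.565) were rare, at 33 to 70 and 58 to 142 UMIs per library.

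**Figure D1:**
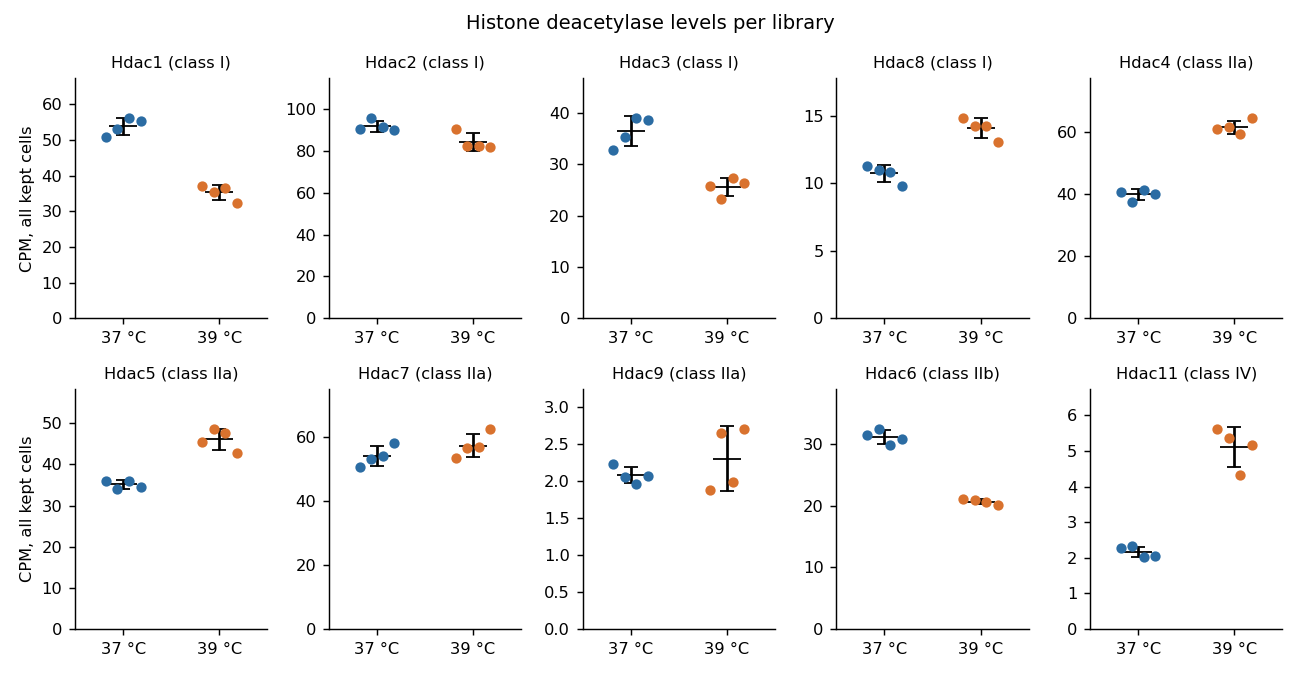
Level of each histone deacetylase gene in CPM (vertical axis, from 0) in the 4 libraries at 37 °C (blue) and the 4 at 39 °C (orange), summed over all kept cells; long bars are means and short bars 1 SD. Hdac1, Hdac3 and Hdac6 lie lower at 39 °C and Hdac4, Hdac5, Hdac8 and Hdac11 higher, with no overlap between the temperatures.

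The make-up of the 10 genes followed from these levels. Class I genes supplied 54.0% ± 0.692 (SD, n = 4) of the UMIs of the 10 genes at 37 °C and 45.2% ± 1.53 at 39 °C, while class IIa genes supplied 36.7% ± 0.781 and 47.5% ± 1.61. Class I was the larger class in all 4 libraries at 37 °C, from 53.2% to 54.7%. At 39 °C class IIa was the larger in 3 of 4 libraries, and in 39 °C replicate 1 class I held 47.1% against 45.4%. Hdac6 supplied 8.71% ± 0.419 and 5.86% ± 0.112, and Hdac11 0.606% ± 0.0509 and 1.45% ± 0.154. With every cell thinned to 5000 UMIs, class I supplied 53.5% and 45.6% and class IIa 36.8% and 47.1%. These shares are descriptions without a test.

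**Figure D2:**
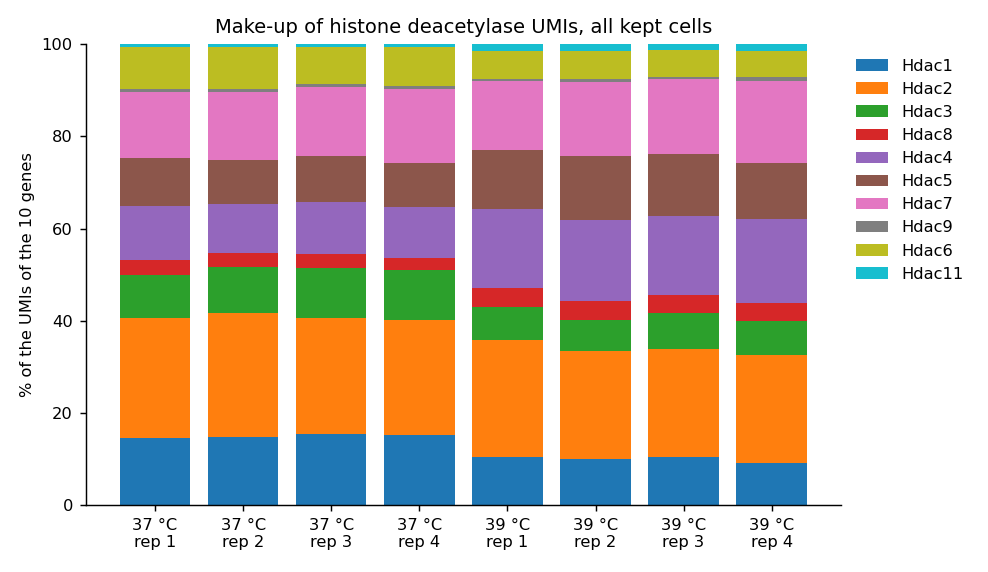
Share of the UMIs of the 10 histone deacetylase genes (percent, vertical axis) that each gene supplied in each of the 8 libraries, all kept cells. From 37 °C to 39 °C the bands of Hdac1, Hdac3 and Hdac6 are narrower and those of Hdac4, Hdac5 and Hdac11 wider, with class I at 43.8% to 47.1% in the 39 °C libraries.

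The first comparison asked how the family differed between 39 °C and 37 °C over all kept cells. Of the 10 members, 8 passed (edgeR quasi-likelihood test, adjusted p under 0.05 by Benjamini-Hochberg over 15810 genes), 4 higher and 4 lower at 39 °C. Of all genes tested 62.0% passed, 31.5% higher and 30.5% lower, so the share of members that passed is read against a background in which most genes moved. For 7 members all libraries of 1 temperature lay above all of the other, against 56.7% of all genes. The median size of the log2 fold change was 0.45 over the members and 0.42 over all genes, and the median with sign was 0.13 and 0.02. Replicates are libraries that the labels number, with nothing said of separate cultures, so p-values measure the spread between these libraries, which may be technical. A sum over a library also cannot tell apart a change in every cell from a change in the share of cells that carry the transcript, which is why cells with and without Mki67 are taken separately further on.

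Among the class I genes, Hdac1 fell the most. Hdac1 encodes a catalytic subunit of the NuRD, Sin3 and CoREST corepressor complexes. Its level was 50.8, 53.3, 56.1 and 55.4 CPM in 37 °C replicates 1 to 4 and 37.1, 35.3, 36.5 and 32.2 CPM in 39 °C replicates 1 to 4. The lowest 37 °C library was well above the highest 39 °C library, and the level was 1.53-fold lower at 39 °C (log2 fold change -0.61 ± 0.052 SE, edgeR adjusted p = 4.78e-09). Hdac3, the deacetylase of the NCoR complex, gave 32.8, 35.4, 39.0 and 38.7 CPM at 37 °C and 25.7, 23.2, 27.3 and 26.3 CPM at 39 °C. It fell by 0.51 on the log2 scale (SE 0.063, edgeR adjusted p = 8.03e-07), again without overlap between the temperatures. Both genes passed under all 20 alternative settings tried.

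Hdac2, the close paralog of Hdac1 and a partner in the same complexes, moved much less. Its level was 90.6, 95.7, 91.6 and 89.9 CPM at 37 °C and 90.6, 82.4, 82.4 and 82.2 CPM at 39 °C. The library 39 °C replicate 1 lay among the 37 °C libraries, while the other 3 at 39 °C lay below them. Its log2 fold change, -0.13 with an SE of 0.046, passed narrowly (edgeR adjusted p = 0.0246). The call was lost with upper quartile factors (adjusted p = 0.0578), with library totals (0.0983), with cells thinned to 5000 UMIs (0.103), with cells of 8000 to 16000 UMIs only (0.130), and without 37 °C replicate 2 or 39 °C replicate 2, 3 or 4 (0.0552 to 0.0804). Hdac8, an X-linked class I enzyme that works outside these complexes and deacetylates the cohesin subunit Smc3, went the other way. It gave 11.3, 10.97, 10.8 and 9.83 CPM at 37 °C and 14.8, 14.3, 14.2 and 13.1 CPM at 39 °C, and rose by 0.39 ± 0.066 (log2 fold change and SE, edgeR adjusted p = 4.02e-05). All 4 libraries at 39 °C were above all 4 at 37 °C.

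Of the class IIa genes, Hdac4 and Hdac5 rose and Hdac7 and Hdac9 did not pass. Hdac4, known as a repressor of MEF2 targets, is encoded at chr1:91928779-92195699 (minus strand, GRCm38), and the promoter window printed above lies within this span, after the start of a longer transcript. It gave 40.7, 37.6, 41.5 and 40.0 CPM at 37 °C and 61.0, 61.7, 59.5 and 64.5 CPM at 39 °C. The groups were far apart, and the level was 1.54-fold higher at 39 °C (log2 fold change 0.63 ± 0.047 SE, edgeR adjusted p = 7.63e-10). Hdac5, the member whose window holds the MEF2 site, gave 36.0, 34.0, 36.0 and 34.6 CPM at 37 °C and 45.5, 48.6, 47.5 and 42.7 CPM at 39 °C. It was 1.31-fold higher (log2 fold change 0.39 ± 0.050 SE, edgeR adjusted p = 1.15e-06), with no overlap.

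Hdac7, which is best known in endothelial cells and thymocytes, gave 50.5 to 58.0 CPM at 37 °C and 53.5 to 62.5 at 39 °C, and the ranges overlapped. Its log2 fold change was 0.09 with a 95% interval from -0.04 to 0.22 (edgeR adjusted p = 0.161), and it passed under 1 of 20 alternatives, thinning to 5000 UMIs (adjusted p = 0.0425). Hdac9 ran from 1.96 to 2.23 CPM at 37 °C and from 1.87 to 2.70 at 39 °C. The log2 fold change was 0.16 with an interval from -0.19 to 0.52 (adjusted p = 0.352), so at this depth neither a modest fall nor a rise of this gene can be set aside. Exons of Hdac4 and Hdac7 overlap those of Gm26720 and Slc48a1 on the opposite strand in GENCODE M21, and whether counting used the strand is not given in the sources used here.

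Hdac6 and Hdac11 moved in opposite directions. Hdac6, the tubulin deacetylase, lies at chrX:7930120-7947889 (minus strand), and its promoter window holds a CHR element, as does that of Hdac8, which rose, and an E2F core. It gave 31.5, 32.4, 29.8 and 30.8 CPM at 37 °C and 21.2, 20.9, 20.6 and 20.05 CPM at 39 °C, tight groups with a wide gap. The level was 1.51-fold lower at 39 °C (log2 fold change -0.59 ± 0.049 SE, edgeR adjusted p = 3.34e-09). Hdac11 lies at chr6:91156665-91174692 (plus strand), with exons that overlap Gm14573 on the opposite strand. It gave 2.26, 2.33, 2.03 and 2.04 CPM at 37 °C and 5.62, 5.38, 4.32 and 5.17 CPM at 39 °C. Each library at 39 °C was above each at 37 °C, and the level was 2.35-fold higher, with a 95% interval from 1.93 to 2.86 (log2 fold change 1.23 ± 0.116 SE, edgeR adjusted p = 1.86e-08). This was the largest change of the family. In these single-cell sums its size stayed below the 1.5 on the log2 scale that the study set for bulk RNA-seq. In its own bulk RNA-seq, the study named Hdac11 among the genes upregulated at 39 °C that overlap oligodendrocyte markers. The value here is therefore no measure of whether Hdac11 met the limit there. Hdac6 and Hdac11, like Hdac4, Hdac5 and Hdac8, passed under all 20 alternatives.

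The share of cells with at least 1 UMI of a member depends on depth, so each cell was thinned to 5000 UMIs, leaving out 668 shallower cells at 37 °C and 1668 at 39 °C. After thinning, Hdac4 was seen in 17.5% ± 0.923 (SD, n = 4) of cells at 37 °C and 26.1% ± 1.16 at 39 °C. Hdac1 was seen in 22.2% ± 1.89 and 16.7% ± 0.809, and Hdac6 in 14.6% ± 0.608 and 9.96% ± 0.968. Without thinning the values were 38.5% and 45.4% for Hdac4, 47.3% and 31.1% for Hdac1, and 32.7% and 20.3% for Hdac6. Hdac11 was seen in 1.23% ± 0.253 and 2.69% ± 0.583 of thinned cells (2.88% and 5.63% unthinned), so most cells of either temperature showed no Hdac11 UMI at this depth. The CPM moved in the same direction for these 4 genes. All cells are of 1 line, with no cell type known to lack these genes, so the share that free RNA adds was not measured.

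Cells were then divided by Mki67, the gene of the Ki-67 antigen, which is made by dividing cells and is nearly absent from resting ones. Mki67 itself fell from 248 ± 16.7 CPM (SD, n = 4) to 19.2 ± 2.02 (log2 fold change -3.68 ± 0.070 SE, edgeR adjusted p = 4.55e-18). At least 1 Mki67 UMI was found in 55.96% ± 3.55 (SD, n = 4) of kept cells at 37 °C and 6.26% ± 0.842 at 39 °C. After thinning to 5000 UMIs these shares were 44.3% ± 2.23 and 4.57% ± 0.799, a difference of -39.8 percentage points (p = 0.0286 in a two-sided exact permutation test, the smallest that 70 assignments allow). There were 951 to 1492 Mki67-positive cells per library at 37 °C and 73 to 190 at 39 °C. Mki67-negative cells numbered 702 to 1209 and 912 to 3304. Positive cells were deeper than negative ones, with mean library medians of 14474 against 10635 UMIs at 37 °C and 12021 against 10350 at 39 °C. A cell without an Mki67 UMI can still be dividing, and Top2a, another gene of dividing cells, was found in 66.9% of cells at 37 °C and 24.2% at 39 °C.

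In cells with an Mki67 UMI, 3 of 10 members differed between the temperatures, against 33.5% of the 14405 genes tested there, and 35.5% of genes had groups that did not overlap. Hdac1 fell, Hdac4 rose and Hdac11 rose. Hdac1 was at 57.9 ± 1.53 CPM (SD, n = 4) at 37 °C and 36.9 ± 2.85 at 39 °C, 1.56-fold lower (log2 fold change -0.64 ± 0.090 SE, edgeR adjusted p = 9.13e-07). Hdac4 was at 40.2, 37.3, 40.6 and 37.2 CPM at 37 °C and 49.1, 60.4, 43.3 and 66.2 CPM at 39 °C. These 39 °C libraries were widely spread but all above those at 37 °C (log2 fold change 0.49 ± 0.099 SE, edgeR adjusted p = 0.000203). Hdac11 gave 1.43, 1.55, 1.73 and 1.42 CPM at 37 °C and 4.91, 5.98, 4.02 and 5.56 CPM at 39 °C, from 24 to 31 and from 7 to 11 UMIs per library. It was the member with the largest difference here (log2 fold change 1.72 ± 0.300 SE, edgeR adjusted p = 2.83e-05), past the size limit of 1.5 that 1.54% of genes passed together with an adjusted p under 0.01. Its call was lost with cells of 8000 to 16000 UMIs only (adjusted p = 0.0991).

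The other members did not pass in Mki67-positive cells. Hdac6 had a log2 fold change of -0.23 with a 95% interval from -0.48 to 0.03, and Hdac3 one of -0.22 with an interval from -0.48 to 0.05. Hdac5, which rose over all cells, was at 32.0 ± 1.22 and 33.4 ± 6.58 CPM (log2 fold change 0.06, interval from -0.21 to 0.33). Hdac8 gave 0.21 (interval from -0.21 to 0.62) and Hdac2 -0.02 (interval from -0.20 to 0.16), while Hdac9, at 4 to 6 UMIs per library at 39 °C, gave 0.54 (interval from -0.35 to 1.43). Hdac7 was at 54.0 ± 3.75 and 59.7 ± 7.24 CPM (0.15, interval from -0.07 to 0.37). When cells were divided by Top2a in place of Mki67, which gave 2206 in place of 587 positive cells at 39 °C, 8 of 10 members passed, and so did 53.5% of all genes. Hdac3 (-0.49), Hdac6 (-0.50), Hdac5 (0.39), Hdac2 (-0.21) and Hdac7 (0.15) were the added ones. With library totals as the scale, 59.1% of the genes that passed in Mki67-positive cells were higher at 39 °C, against 44.6% with TMM factors, and the direction of Hdac2 turned (0.07).

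In cells without an Mki67 UMI, 7 of 10 members passed, against 56.8% of 15040 genes (29.7% higher and 27.1% lower), with groups that did not overlap for 52.0% of genes. These were the members that passed over all cells, with the same direction, less Hdac2. Hdac4 gave 42.8, 38.9, 44.7 and 45.0 CPM at 37 °C and 62.5, 62.4, 61.5 and 65.0 CPM at 39 °C, which is 0.55 ± 0.054 SE higher on the log2 scale (edgeR adjusted p = 1.48e-08). Hdac6 gave 30.0, 29.1, 27.8 and 26.8 CPM at 37 °C and 20.5, 20.8, 20.2 and 19.4 CPM at 39 °C, a fall of 0.49 on the log2 scale (SE 0.061, adjusted p = 4.38e-07). Hdac1 (48.7 ± 4.19 and 35.5 ± 2.44 CPM) fell by 0.46 and Hdac3 (35.3 ± 2.17 and 25.3 ± 2.12 CPM) fell by 0.48 on the same scale. Hdac11 was at 3.52, 3.68, 2.64 and 3.05 CPM at 37 °C and 5.73, 5.38, 4.39 and 5.18 CPM at 39 °C (log2 fold change 0.67 ± 0.144 SE, adjusted p = 0.000429). The groups of all 7 did not overlap.

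Hdac5 (41.2 ± 2.15 and 47.6 ± 2.79 CPM, log2 fold change 0.21 ± 0.059 SE, edgeR adjusted p = 0.00422) and Hdac8 (11.6 ± 0.372 and 14.4 ± 0.855 CPM, 0.30 ± 0.079 SE, adjusted p = 0.00228) rose least in Mki67-negative cells. Both calls were lost with cells of 8000 to 16000 UMIs only, where Hdac5 gave 0.11 (adjusted p = 0.418) and Hdac8 0.20 (adjusted p = 0.220). Hdac2 was at 87.0 ± 1.87 and 84.2 ± 4.05 CPM (log2 fold change -0.05, interval from -0.17 to 0.07). The intervals of Hdac7 (from -0.07 to 0.20) and Hdac9 (from -0.58 to 0.42) also spanned 0.

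**Figure D3:**
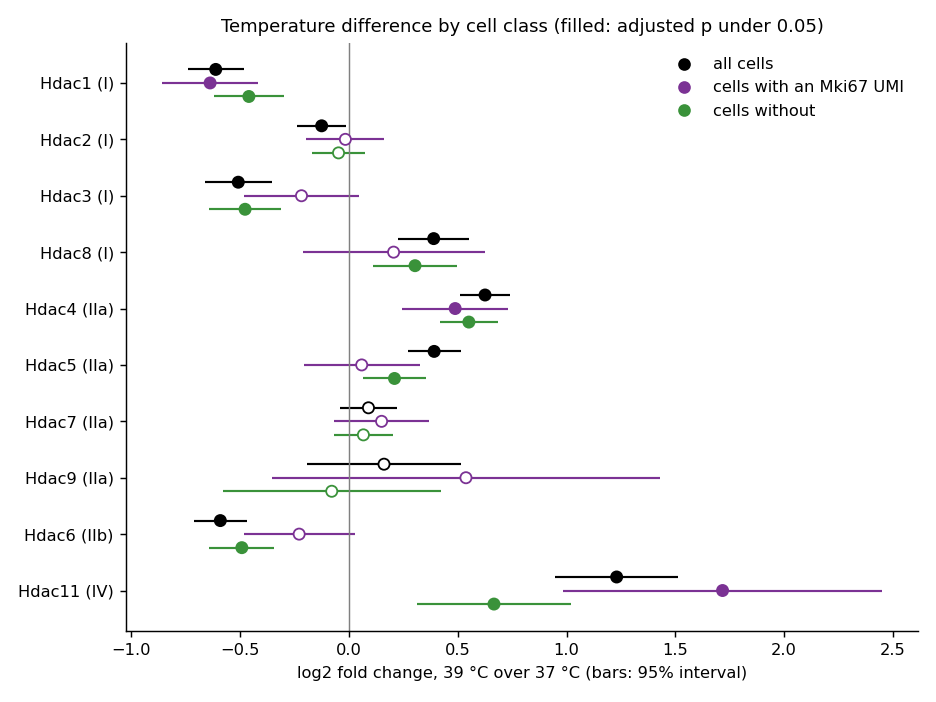
Log2 fold change, 39 °C over 37 °C (horizontal axis), of each member in all kept cells (black), cells with an Mki67 UMI (purple) and cells without (green); points are edgeR estimates, bars 95% intervals, and filled points passed at an adjusted p under 0.05. Hdac1, Hdac4 and Hdac11 passed in all 3 sets, while Hdac3, Hdac5, Hdac6 and Hdac8 passed in all cells and in cells without an Mki67 UMI.

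The next comparison set Mki67-positive against Mki67-negative cells of the same library, in 1 edgeR fit over 16 sums with the library as a block. At 37 °C, 6 of 10 members passed, against 35.0% of 14745 genes (19.8% higher and 15.3% lower in positive cells), and 8 members had the same direction in all 4 libraries, against 46.8% of genes. Hdac1, Hdac2 and Hdac6 were higher in Mki67-positive cells and Hdac4, Hdac5 and Hdac11 lower. Hdac1 gave 45.5, 45.4, 52.5 and 52.7 CPM in negative cells of replicates 1 to 4 and 56.1, 58.7, 59.5 and 58.2 CPM in positive ones (log2 fold change 0.24 ± 0.046 SE, edgeR adjusted p = 3.05e-06). Hdac6 rose from 28.6 ± 1.41 to 33.4 ± 1.31 CPM (SD, n = 4; 0.22 ± 0.058 SE, adjusted p = 0.000752), and Hdac2 from 87.5 ± 1.87 to 96.8 ± 3.88 CPM (0.15 ± 0.038 SE, adjusted p = 0.000851).

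Hdac11 showed the largest difference between the classes at 37 °C. It gave 3.53, 3.72, 2.65 and 3.07 CPM in negative cells and 1.43, 1.55, 1.73 and 1.44 CPM in positive cells of the same libraries, from 27 to 42 and from 24 to 31 UMIs. The positive cells were the lower in each library (log2 fold change -1.07 ± 0.192 SE, edgeR adjusted p = 7.41e-07), and the call held under all 22 alternatives. Hdac5 gave 42.8, 41.5, 43.0 and 38.3 CPM in negative cells and 32.3, 30.2, 32.9 and 33.0 CPM in positive cells, a fall of 0.37 on the log2 scale (SE 0.054, adjusted p = 1.57e-09) that also held under all 22. Hdac4 was at 43.1 ± 2.71 and 39.0 ± 1.74 CPM (-0.15 ± 0.051 SE, adjusted p = 0.0165), a call lost with DESeq2, without the block, after thinning and without 37 °C replicate 4 (adjusted p from 0.0659 to 0.190). After thinning to 5000 UMIs 3 members passed, against 23.5% of genes, and Hdac1 (0.12, adjusted p = 0.241) and Hdac2 (0.09, adjusted p = 0.210) were not among them. Thinning also set the classes anew from the thinned counts, so positive cells could become negative ones. At 37 °C this gave 3497 in place of 4746 positive cells and 4385 in place of 3804 negative cells. The call of Hdac1 was also lost in cells of 8000 to 16000 UMIs (0.15, adjusted p = 0.129). That of Hdac2 was lost there too (0.13, adjusted p = 0.0863), with upper quartile factors (0.06, adjusted p = 0.194) and by Top2a (0.04, adjusted p = 0.491), and that of Hdac6 by Top2a (0.09, adjusted p = 0.250). Hdac3 (0.09, interval from -0.04 to 0.22), Hdac8 (-0.17, from -0.39 to 0.05), Hdac7 (-0.03, from -0.14 to 0.08) and Hdac9 (-0.37, from -0.87 to 0.13) did not pass. With upper quartile factors 32.9% of the genes that passed were higher in positive cells, and with library totals 44.0%, against 56.4% with TMM factors.

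At 39 °C, 5 of 10 members passed between the classes, against 28.0% of genes (13.1% higher and 14.9% lower), and 4 had the same direction in all 4 libraries, against 40.1% of genes. Hdac6 gave 20.5, 20.8, 20.1 and 19.3 CPM in negative cells and 30.5, 24.8, 27.1 and 31.0 CPM in positive cells, which is 0.48 ± 0.114 SE higher on the log2 scale (edgeR adjusted p = 0.000256). Hdac3 was higher in positive cells (25.3 ± 2.05 against 32.2 ± 3.05 CPM, 0.35 ± 0.106 SE, adjusted p = 0.00581), and so was Hdac2 (84.0 ± 4.23 against 94.9 ± 5.66 CPM, 0.18 ± 0.063 SE, adjusted p = 0.0201). Hdac5 gave 47.3, 49.5, 49.4 and 43.6 CPM in negative cells and 29.2, 42.1, 27.6 and 33.7 CPM in positive ones, a fall of 0.52 on the log2 scale (SE 0.096, adjusted p = 1.57e-06). Hdac4 was at 62.7 ± 1.53 and 54.4 ± 10.3 CPM (-0.21 ± 0.079 SE, adjusted p = 0.0310), lower in 3 of 4 libraries. Hdac11 was at 5.16 ± 0.581 CPM in negative and 5.08 ± 0.845 CPM in positive cells (-0.01 ± 0.251 SE, interval from -0.63 to 0.60), and Hdac1 at 35.4 ± 2.45 and 36.6 ± 2.91 CPM (0.07, interval from -0.17 to 0.30).

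These 39 °C calls rest on few positive cells. After thinning to 5000 UMIs, 0 members passed (edgeR, 3 at an unadjusted p under 0.05), with adjusted p of 0.0613 for Hdac5 and 0.0636 for Hdac3, while DESeq2 on the unthinned sums passed 4. Thinning, which set the classes anew, left 388 in place of 587 positive cells. With Top2a in place of Mki67 the members that passed were 2, Hdac1 (0.18, adjusted p = 0.0120) and Hdac8 (-0.31, adjusted p = 0.00603), against 21.5% of genes. With at least 1 Mki67 UMI neither of them passed, and with at least 2 Mki67 UMIs 6 members passed, Hdac8 among them (-0.60, adjusted p = 0.0287) and Hdac1 not. The call of Hdac6 was lost in cells of 8000 to 16000 UMIs (0.37, adjusted p = 0.145), and the calls of Hdac2 and Hdac4 held under 14 and 12 of 22 alternatives. The call of Hdac3 was lost without 39 °C replicate 2 (adjusted p = 0.173), that of Hdac2 without 39 °C replicate 3 or 4 (0.163 and 0.0738), and that of Hdac4 without 39 °C replicate 1 or 3 (0.107 and 0.462). With library totals 57.9% of the genes that passed were higher in positive cells, against 46.8% with TMM factors.

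Whether the difference between the classes itself differed between the temperatures was tested as an interaction in the same fit. It passed for Hdac11 among the 10 members, against 13.3% of genes (5.45% with a higher class difference at 39 °C and 7.82% with a lower one). The class difference of Hdac11 was 1.06 higher at 39 °C than at 37 °C on the log2 scale (SE 0.329, edgeR adjusted p = 0.0162). The levels behind it were 3.24 ± 0.479 and 1.54 ± 0.139 CPM in negative and positive cells at 37 °C, against the nearly equal levels given above at 39 °C. The call was lost with cells over 5000 genes left out (adjusted p = 0.157), after thinning (0.141), with cells of 8000 to 16000 UMIs only (0.556), with at least 2 Mki67 UMIs (0.126), with Top2a (0.0670) and without 39 °C replicate 2 (0.0665) or 4 (0.0571). The value stayed between 0.65 and 1.58 in all of them, on 7 to 11 UMIs per library in the positive cells at 39 °C. Hdac3 (0.26, interval from -0.03 to 0.54) and Hdac6 (0.26, from -0.05 to 0.57) did not pass, and both did with library totals (0.35 each, adjusted p = 0.0336 and 0.0463). With Top2a, Hdac5 passed in place of Hdac11 (0.22, adjusted p = 0.0355), against -0.16 with Mki67. Of the genes that passed the interaction, 41.1% had a higher class difference at 39 °C with TMM factors, 58.2% with RLE factors, 64.5% with upper quartile factors and 71.9% with library totals. An effect that passed in cells of 1 class and not of the other, as for Hdac3, Hdac5, Hdac6 and Hdac8, is therefore not shown to differ between the classes.

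**Figure D4:**
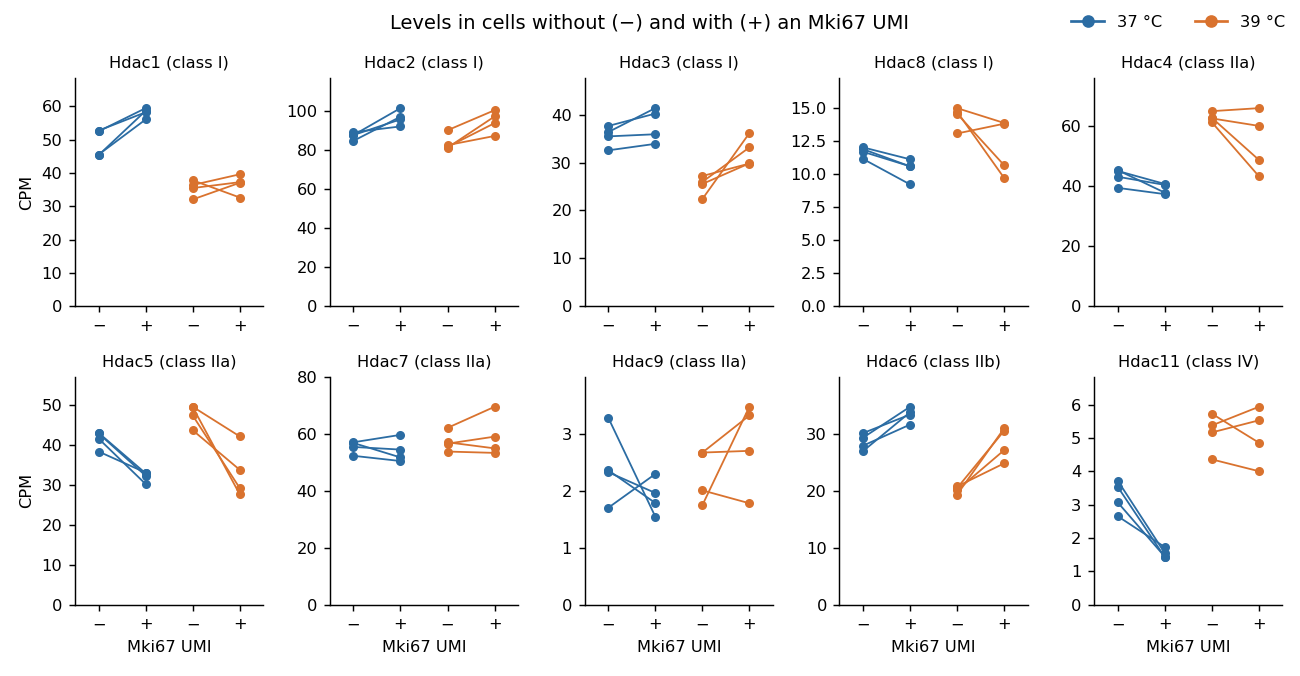
Level in CPM (vertical axis, from 0) of each member in cells without (−) and with (+) an Mki67 UMI of the same library, with lines joining the 2 classes of a library at 37 °C (blue) and 39 °C (orange). Hdac11 is lower in Mki67-positive cells in all 4 libraries at 37 °C and near 5 CPM in both classes at 39 °C, and Hdac5 is lower in positive cells in all 8 libraries.

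The genes that work with the deacetylases were described by lists, in all kept cells and beside the median log2 fold change of all genes (0.02) and the 31.5% of all genes that rose and 30.5% that fell. In the NuRD complex, the home of Hdac1 and Hdac2 together with a chromatin remodeller, 1 gene rose, 9 fell and 2 did not pass of 12 (median -0.35). Mbd3, which links the parts of the complex, fell from 150 ± 12.6 to 72.7 ± 2.14 CPM (SD, n = 4; log2 fold change -1.04 ± 0.056 SE, edgeR adjusted p = 5.42e-12). The histone chaperone Rbbp7 fell from 169 ± 11.1 to 82.6 ± 2.96 CPM (-1.03 ± 0.052 SE), and the remodeller Chd3 from 62.4 ± 1.59 to 39.6 ± 2.13 CPM (-0.65 ± 0.048 SE). In Mki67-negative cells 8 of the 12 fell and 1 rose (27.1% and 29.7% of all genes), and in Mki67-positive cells 7 fell (18.6% of all genes). Of 13 genes of the Sin3 complex, the other large complex of Hdac1 and Hdac2, 9 fell, 2 rose and 2 did not pass over all cells (median -0.21). Brms1l (-0.49 ± 0.079 SE) and Sap18 (-0.42 ± 0.047 SE) fell and Arid4b (0.48 ± 0.047 SE) rose, from 154 to 215 CPM. In Mki67-negative cells 5 of the 13 fell and 4 rose, against the same shares of all genes.

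The remaining corepressor complexes were mixed. Of 9 CoREST genes 4 rose (among them Rcor3 at 0.66 ± 0.051 SE and Zmym2 at 0.38 ± 0.061 SE), 2 fell (among them Zmym3 at -0.46 ± 0.069 SE) and 3 did not pass. Of 4 genes of the NCoR complex, where Hdac3 acts, Ncor1 rose (0.12 ± 0.046 SE, edgeR adjusted p = 0.0260), Tbl1x (-0.14 ± 0.048 SE) and Gps2 (-0.14 ± 0.053 SE) fell, and 1 did not pass. These small changes were not stable: the call of Ncor1 was lost under 10 of 20 alternatives (RLE factors, no low-count filter, no cell filter, the 5000-gene limit, thinning, and without 37 °C replicate 2 or 3 or 39 °C replicate 2, 3 or 4), and the number of genes lower ran from 0 to 3. Of the mitotic deacetylase complex MiDAC, 2 of 3 genes were tested: its scaffold Elmsan1 rose (0.68 ± 0.060 SE) and Dnttip1 fell (-0.19 ± 0.045 SE).

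For the class IIa enzymes, the lists were their MEF2 partners and the 14-3-3 proteins that hold them in the cytoplasm. Mef2a rose from 75.3 ± 4.56 to 112 ± 4.34 CPM (0.57 ± 0.051 SE, edgeR adjusted p = 8.81e-09) and Mef2d from 42.9 ± 0.475 to 55.0 ± 2.96 CPM (0.36 ± 0.047 SE). Mef2c, at a far lower level, fell from 5.48 ± 0.544 to 2.26 ± 0.0935 CPM (-1.28 ± 0.110 SE), and Mef2b, at under 1 CPM, did not pass. Of 7 genes of 14-3-3 proteins 5 fell, none rose and 2 did not pass (median -0.45). In each Mki67 class 5 fell as well, against 27.1% of all genes in negative and 18.6% in positive cells. Ywhae fell from 609 ± 33.2 to 353 ± 31.9 CPM (-0.79 ± 0.062 SE), Ywhah from 154 ± 5.51 to 86.3 ± 2.67 CPM (-0.84 ± 0.046 SE) and Ywhaq from 202 ± 10.98 to 126 ± 2.47 CPM (-0.68 ± 0.048 SE).

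The counterparts of the family were less even. Of the 7 sirtuins, the NAD-dependent deacetylases, 5 rose, none fell and 2 did not pass (median 0.21), where 31.5% of all genes rose. In Mki67-negative cells 4 of the 7 rose (29.7% of all genes). In Mki67-positive cells 1 rose and 6 did not pass, where 33.5% of all genes passed in either direction. Sirt2, which like Hdac6 deacetylates tubulin, rose from 45.5 ± 2.35 to 61.3 ± 3.89 CPM (0.43 ± 0.053 SE, edgeR adjusted p = 8.24e-07), opposite in direction to Hdac6. Sirt4 (0.40 ± 0.109 SE) and Sirt5 (0.38 ± 0.055 SE), both mitochondrial, rose as well. Of 10 acetyltransferases 3 rose, 3 fell and 4 did not pass. Hat1, which acetylates newly made histone H4, fell from 158 ± 9.74 to 60.5 ± 1.29 CPM (-1.39 ± 0.051 SE, adjusted p = 1.87e-14), Kat2a fell by 0.54 on the log2 scale (SE 0.060), and Kat6b rose from 25.5 to 43.1 CPM (0.75 ± 0.054 SE). Of the 4 BET readers of acetylated lysine, Brd2 rose (0.12 ± 0.049 SE, adjusted p = 0.0355) and the other 3 did not pass. Over the 10 lists 52 of 72 genes passed (72.2%), 20 higher and 32 lower, against 62.0% of all genes. The share of all genes depends on the low-count filter. With filterByExpr, which kept 12765 genes, it was 72.9%, so the lists are not shown to differ from other genes.

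**Figure D5:**
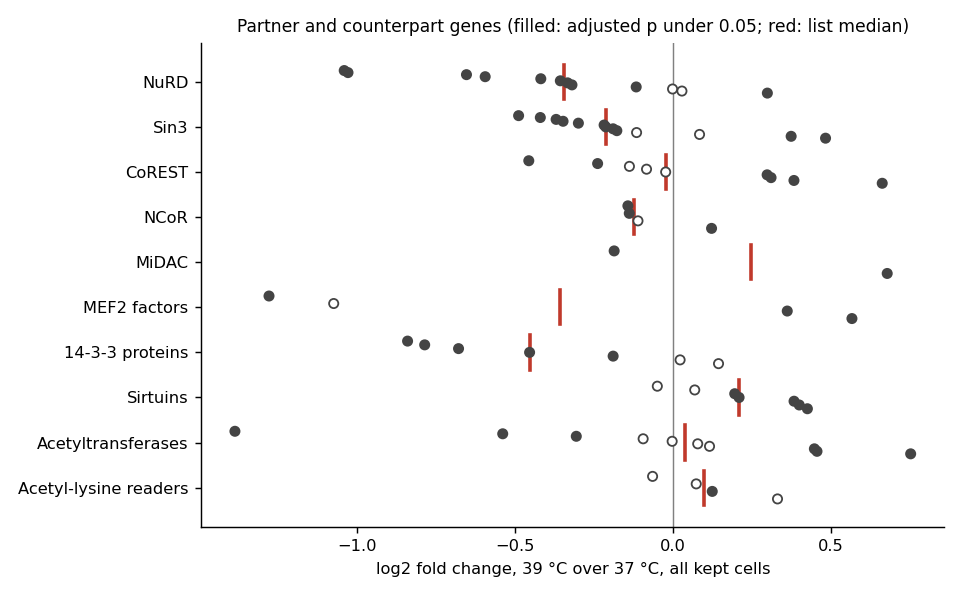
Log2 fold change, 39 °C over 37 °C, all kept cells (horizontal axis), of each gene of the partner and counterpart lists (rows); filled points passed at an adjusted p under 0.05, and red bars mark each list's median. NuRD, Sin3 and the 14-3-3 proteins lie mostly below 0 (medians -0.35, -0.21 and -0.45) and the sirtuins mostly above it (0.21).

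The genes with the profile most like that of 2 members were sought among 8350 genes with a mean of at least 10 CPM, by the root mean square difference in centred log2 CPM over the 8 libraries. For Hdac11, the member with the largest rise, the nearest were Yeats2 (0.065), Ddit3 (0.068) and Ppp1r13l (0.075), with log2 fold changes of 1.12, 1.05 and 1.06. For Hdac1, the member with the largest fall, they were Tfam (0.038), Rcn1 (0.038) and Nudc (0.040), with log2 fold changes of -0.57, -0.65 and -0.62. With 8 libraries in 2 groups, likeness of this kind is for the most part a like difference between the temperatures.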

How the data were processed

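Single-cell RNA-seq libraries of SN4741 cells (Chromium Single Cell 3′ V3) were analysed from the UMI counts that the authors deposited, 4 libraries at 37 °C and 4 at 39 °C. Per the labels and the study's methods, the authors aligned reads to mm10 with Cell Ranger 3.0.1 and counted UMIs per gene and cell, with no normalization, and the deposited counts are whole numbers. The histone deacetylase genes, the partner lists and the tests were chosen with earlier results of these data known. Genes were matched by the symbols in the files, and positions came from GENCODE M21 (GRCm38).

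As in the study, cells with over 15% mitochondrial UMIs, under 200 genes or over 6000 genes were left out, and no doublet caller was run. Counts were summed per library over all kept cells, over those with at least 1 Mki67 UMI and over those with none. Genes averaging 1 count or more per library were tested in edgeR 4.0.16 (R 4.3.3) with TMM factors, glmQLFit and glmQLFTest on temperature alone. The Mki67 classes were compared in a fit of 16 sums with the library as a block. P-values were adjusted by Benjamini-Hochberg over all genes tested, and a gene passed at an adjusted p under 0.05. Standard errors were taken from each fold change (log2) and its F statistic, as the change over the root of F. The 95% intervals use a t quantile with 6 degrees of freedom. The edgeR test uses more, so the intervals are wider than its p-values imply. An interval can span 0 where the unadjusted edgeR p is under 0.05, as for Hdac6 in Mki67-positive cells (0.0359) and the interactions of Hdac3 (0.0303) and Hdac6 (0.0397). CPM are per 1000000 UMIs of tested genes, with totals scaled by TMM factors, so they differ slightly between fits. The procedure was also run on simulated counts with known changes in a small share of genes, none of them of low count. Those changes were larger than most member changes here, so that run does not measure how well small or low-count changes are found. Thinning drew 5000 UMIs per cell without replacement (seed 7), and the Mki67 classes of thinned cells were set from the thinned counts. Shares of cells were compared by exact permutation in Python 3.11.15 (scipy 1.17.1).

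All members were named. A gene of the NCoR list is not reported here. From each list, up to 3 genes with the largest log2 fold change in size among those that passed in all cells were named, with the 3 nearest profiles to the members with the largest rise and fall. Alternatives were RLE, upper quartile or no scaling factors, filterByExpr or no low-count filter, DESeq2 1.42.0, fits with the replicate number as a block, fits with no library block, no cell filter, limits of 5000 genes or 10% mitochondrial UMIs, thinning, cells of 8000 to 16000 UMIs, classes by at least 2 Mki67 UMIs or by Top2a, and each library left out in turn. Counts of UMIs per library limit the precision of Hdac9 and Hdac11 most, and intervals of this kind cover the spread between libraries.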

Additional observations from a re-analysis of the deposited data

Results flagged for a closer look

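In 3 of the 60 groups of 4 libraries examined, 1 library stood apart from the other 3 by more than Dixon's 95% limit, and chance flags about 1 in 20 groups. Hdac2 stood at 90.6 CPM in 39 °C replicate 1 over all cells, against 82.2 to 82.4 in the other 3 libraries at 39 °C, and in Mki67-negative cells at 90.3 CPM against 82.0 to 82.7. This library had the fewest kept cells (985) and the highest median depth (16665 UMIs per cell), and the part of either in the Hdac2 value was not tested. Without it, Hdac2 still passed between the temperatures over all cells. Hdac8 in Mki67-negative cells of 39 °C replicate 4, the shallowest library (median 6676 UMIs per cell over all kept cells), stood at 13.1 CPM against 14.7 to 14.996, still above the highest 37 °C library at 11.97.

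The difference between Mki67-positive and Mki67-negative cells was not the same at both temperatures for Hdac11, with an interaction of 1.06 on the log2 scale (edgeR adjusted p = 0.0162). Positive cells were the lower in 4 of 4 libraries at 37 °C and in 2 of 4 at 39 °C. The positive cells at 39 °C held 37 Hdac11 UMIs in all, and the call was lost under 7 of 22 alternatives.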

How the results depend on the processing

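Over all cells, 8 members passed with TMM factors, and every library left out or setting tried kept the direction of each member that passed. In that comparison Hdac9, which did not pass, turned to -0.13 in cells of 8000 to 16000 UMIs. The genes that passed between temperatures in Mki67-positive cells (4832) numbered 2168 after thinning, 2114 in cells of 8000 to 16000 UMIs and 7984 by Top2a, where 8 members passed. At 37 °C the genes that passed between classes (5166) numbered 3166 after thinning, with 3 members, and 3353 in cells of 8000 to 16000 UMIs. At 39 °C they (4132) numbered 2365 after thinning. Members passed at 39 °C (5) were 3 without the library block, 3 with cells over 5000 genes left out, 0 after thinning, 2 in cells of 8000 to 16000 UMIs, 2 by Top2a, 6 with at least 2 Mki67 UMIs and 3 to 5 with a library left out. For the interaction, genes passed (1956) were 1266 with DESeq2, 925 without the library block, 999 after thinning and 898 in cells of 8000 to 16000 UMIs. Members passed (1) were 3 with library totals, 2 without a cell filter or with the 10% mitochondrial limit, 0 with the 5000-gene limit, thinning, cells of 8000 to 16000 UMIs or at least 2 Mki67 UMIs (1 or 2 at an unadjusted p under 0.05, edgeR), and 0 to 1 with a library left out. Thinning and the depth limit also leave fewer UMIs and cells, and thinning sets the Mki67 classes anew. The Mki67 share differed by -40.8 to -39.0 points with a library left out, where the exact test cannot go below 0.0571.

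Directions turned only in values that had not passed, apart from Hdac2 between classes at 39 °C, and the cause was not tested. Between temperatures in Mki67-positive cells, Hdac2 gave 0.012 with RLE factors, 0.026 with upper quartile factors, 0.075 with library totals, 0.014 with filterByExpr, 0.012 with DESeq2, 0.0031 at the 10% mitochondrial limit, 0.064 after thinning, 0.011 without 37 °C replicate 2 and -0.051 to 0.018 with a library left out. Hdac8 gave -0.18 with at least 2 Mki67 UMIs. Hdac5 gave -0.0082 with the 5000-gene limit, -0.17 in cells of 8000 to 16000 UMIs and -0.083 to 0.16 with a library left out. In Mki67-negative cells Hdac9 gave 0.0011 without 39 °C replicate 1 and -0.21 to 0.12 with a library left out. Between classes at 39 °C, thinning gave -0.29 for Hdac1 and 0.0060 for Hdac8, and Top2a gave -0.078 for Hdac2 and -0.30 for Hdac9. Hdac11 gave 0.017 with RLE factors, 0.038 with library totals, 0.014 with DESeq2, 0.13 at the 10% mitochondrial limit, 0.023 without 39 °C replicate 3 and -0.075 to 0.038 with a library left out. For the interaction, cells of 8000 to 16000 UMIs gave 0.029 for Hdac1, 0.092 for Hdac8 and 0.052 for Hdac4. Hdac2 gave -0.030 without a cell filter and -0.12 by Top2a, and Hdac8 0.033 after thinning. Hdac4 gave 0.0018 with upper quartile factors, 0.027 with library totals, 0.051 with the 5000-gene limit, 0.028 after thinning, 0.056 by Top2a and -0.16 to 0.040 with a library left out. Hdac5 gave 0.22 by Top2a.

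The replicate numbers did not pair the libraries: deviations of same-numbered libraries correlated from -0.12 to 0.29, 1 of 4 pairs was over 0.1, and 2 of 8 libraries correlated best with their own number. With the replicate number as a block, 9617 genes and 8 members passed over all cells, 4788 genes and 3 members in Mki67-positive cells and 8426 genes and 7 members in Mki67-negative cells, and it changed no call of a member.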
